A study of Danio rerio with 2 samples.

Results

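Open chromatin around 43 zebrafish genes that each carried 4 or more accessible regions was compared between an npas4l mutant embryo and a wild type embryo. These genes were found by counting, in the deposited table, how many regions were assigned to each Gene id, with the mitochondrial chromosome and chromosome 4 beyond 27000000 left out. They held 177 of the 35854 regions, 38 genes with 4 regions and 5 with 5, among 14362 genes with at least 1 region on the chromosomes kept. A ribosomal RNA gene with 5 regions was left out by the chromosome rule. ATAC-seq, in which the Tn5 transposase cuts and tags accessible DNA, had been run on single whole embryos at the 1-somite stage after removal of chorion and yolk. There was 1 library from an embryo homozygous for npas4l bns297 and 1 from a wild type embryo, and the labels' growth text, which names the AB strain, is the same for both. Since each genotype had 1 library, mutant and wild type values are set side by side without a statistical test or a replicate check. In whole embryos, a lower value can come from fewer cells of a type or from less accessibility per cell, and these cannot be told apart.

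Genes that direct early development often lie among many enhancers, short stretches of DNA at which transcription factors bind, besides the promoter at which transcription starts. Such enhancers can act in different tissues, so that a gene used in several places may have separate elements for each. Npas4l is a bHLH-PAS transcription factor required for endothelial and blood cell specification, and its loss gives the zebrafish cloche phenotype. In the deposited table a region was assigned to a gene where its edge was at most 5 kb away from the transcription start site (TSS), since 0 of the assigned regions lay farther away. The count of regions per gene therefore covers the promoter and its near flanks and leaves out remote enhancers.

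Values of single regions are normalised read counts as deposited, whose scaling is by the authors. Dividing the mutant values by a factor read from their steps gave back whole reads. The wild type factor was not estimated and was taken as the reciprocal of the mutant one. On this basis the regions of the 43 genes held 36503 reads in the mutant library and an estimated 42327 in the wild type library, and all 35854 regions held 7066666 in the mutant library and an estimated 7853828 in the wild type library. Log2 ratios set mutant over wild type after adding 1 to both. Medians over regions or genes carry order-statistic 95% intervals in brackets. The range in brackets after the log2 ratio of a region or of a gene's summed regions is a 95% Clopper-Pearson interval. It is an exact binomial interval, computed from the share of the reads that were mutant. That range reflects read counting alone. PCR copies were not marked by molecular identifiers, and how far embryos of 1 genotype differ is not part of it. Positions refer to GRCz10, as deposited. Fixed markers of somite, neural plate, epidermis and blood or endothelium all had at least 1 region, and 2 of 4 listed notochord symbols did. Of the endoderm markers foxa2 and sox32 had a region and sox17 had none. Of the yolk syncytial layer markers ttr had a region, with at most 40 normalised reads in the mutant and 14 in wild type, and mxtx2 had none.

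Genes with many open regions were mostly regulators of transcription. Of the 43 genes, 25 (58.1%) belonged to a class of transcription factors or their co-factors, against 4.9% of 11859 genes with 1 region, 11.7% of 2180 genes with 2 and 29.6% of 280 genes with 3. Homeobox factors, which pattern the body axis and the nervous system, made up 0.86% of the genes with 1 region, 3.49% of those with 2, 11.1% of those with 3 and 27.9% of those with 4 or more. Genes of signalling ligands, receptors and modulators took 4.81%, 6.97%, 11.8% and 13.95% of the same 4 groups. Genes of chromatin and RNA machinery did not show this order, at 5.2%, 5.37%, 4.29% and 4.65%. Classes were assigned from gene symbols by family, and no enrichment test was made.

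**Figure D1:**
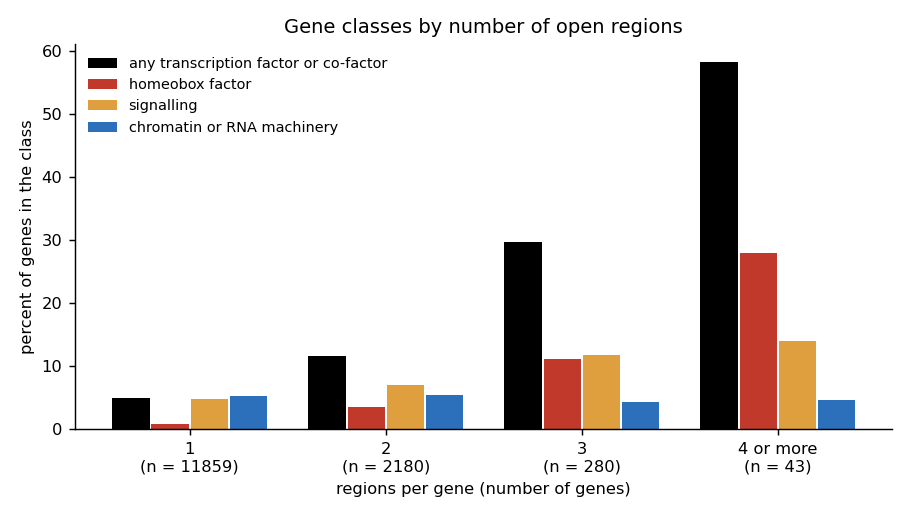
Bars give the percent of genes in a class (y axis) for genes with 1, 2, 3 and 4 or more open regions (x axis, number of genes below each group). Transcription factors and co-factors take 4.9% of the genes with 1 region and 58.1% of those with 4 or more, while chromatin and RNA machinery stays between 4.29% and 5.37%.

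The 12 homeobox genes were dlx3b, eng2a, hoxa2b, msx1a, nkx2.2b, nkx2.3, nkx2.4b, nkx2.9, otpa, pax2b, pax3a and pax6a. The bHLH class comprised her7, a gene of the segmentation clock, her15.1, a Hes-type repressor gene, id1, whose protein binds bHLH factors without binding DNA, and MYF5, the myogenic factor. The names MYF5 and IGFBP5 came from the gene name table, in its spelling. Other factors and co-factors were sox13, sox21b, tbx1, sp9, myt1a, tfap2d, smad7, which inhibits BMP and TGF-beta signalling, tle3a, a Groucho-type co-repressor gene, and hmga1a, which encodes an architectural chromatin protein. Signalling genes included bmp7a, IGFBP5, dusp23b, the Hedgehog inhibitor hhip and the FGF feedback inhibitor spry4. The clone-named gene si:ch211-199f5.1, which the gene name table pairs with PCDH8, was the 1 gene of the adhesion class, and igf2bp1 and nova1 encode RNA-binding proteins. The remaining 9 were ier2, midn, rps13, hspa12a, samd11, spryd7a, zp3d.2, si:ch211-193l2.5 and ENSDARG00000100549, which has no symbol in the tables used.

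None of 27 blood and endothelial genes that had a region reached 4 regions. Over all genes with a region, 43 of 14362 did, so a count of 0 in a list this short says little. The highest count on the blood and endothelial list was 3 regions, just below the threshold, at etv2, fli1b, gata2a, hhex, lmo2 and nrp1a. Summed over its 3 regions, etv2, the ETS factor of endothelial specification, held 1435 normalised reads in the mutant, against 1927 in wild type, and lmo2, a cofactor gene of blood and vessel, held 163 in the mutant, against 251 in wild type. All 3 regions of etv2, gata2a and lmo2 had a log2 ratio below 0, while fli1b, hhex and nrp1a each had 1 region below 0. The cardiac and pronephric, notochord, epidermal, endodermal and broadly expressed control lists likewise had 0 genes with 4 or more regions. The paraxial mesoderm list had 3 (MYF5, her7 and si:ch211-199f5.1), as did the neural crest and placode list (dlx3b, msx1a and pax3a), and the neural list had 1 (pax6a). The list genes zp3d.2 lay closest to were fli1b and etv2, with TSSs 38.2 and 42.3 kb from its own.

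Farther from the TSS, too, these genes lay where open regions were dense. Between 5 and 50 kb from the TSS there were a median of 6 regions (quartiles 4 and 8) for genes with 4 or more regions. The median was 3 for genes with 1 region (1 and 4), 3 for genes with 2 (2 and 5) and 5 for genes with 3 (3 and 7). A gene's own regions centred beyond 5 kb, as at bmp7a, hmga1a and tfap2d, are part of this count. The genes themselves were short, with a median length of 7775 bp, against 16484 bp for genes with 1 region. Their regions were narrow, at a median width of 330 bp against 504 bp for genes with 1 region, and 33.3% of them lay within 1 kb of the TSS, against 85.7% for genes with 1 region. Some members lie near each other, with TSSs 21.2 kb apart on chromosome 20 for nkx2.2b and nkx2.4b, while those of her15.1 and si:ch211-193l2.5 lie 53.3 kb apart on chromosome 11.

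Levels differed widely between regions of 1 gene. In the wild type library a gene's most open region held a median of 3.46 times as many normalised reads as its least open one, with 17 of 43 genes at 4 times or more and 4 genes under 2 times. The widest spread was at sox13, a SoxD gene, where a region 4588 bp upstream of the TSS (chromosome 11, 37496104 to 37496906) held 1293 normalised reads in the mutant, against 1353 in wild type. The least open sox13 region, 2134 bp inside the gene, held 115 and 110. The most even gene was nkx2.2b, whose 4 regions held 66 to 125 normalised reads in mutant and 99 to 145 in wild type chromatin. Across the 177 regions, levels ran between 17 and 1309 in mutant and between 26 and 1526 in wild type chromatin, and the highest in both was the id1 promoter.

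The most open region of a gene was mostly the same in both libraries, in 36 of 43 genes. The whole order of regions was the same in 17 of 43. The 7 genes with different leading regions were bmp7a, hhip, hmga1a, hspa12a, myt1a, rps13 and si:ch211-193l2.5. At hmga1a these were close, since the promoter held 959 in the mutant, against 1068 in wild type, and the region 1425 bp into the gene held 1021 in the mutant, against 1010 in wild type. At hhip the promoter led in the mutant library, with 102 against 49 normalised reads, and the region 1629 bp inside the gene led in the wild type library, with 44 against 75.

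**Figure D2:**
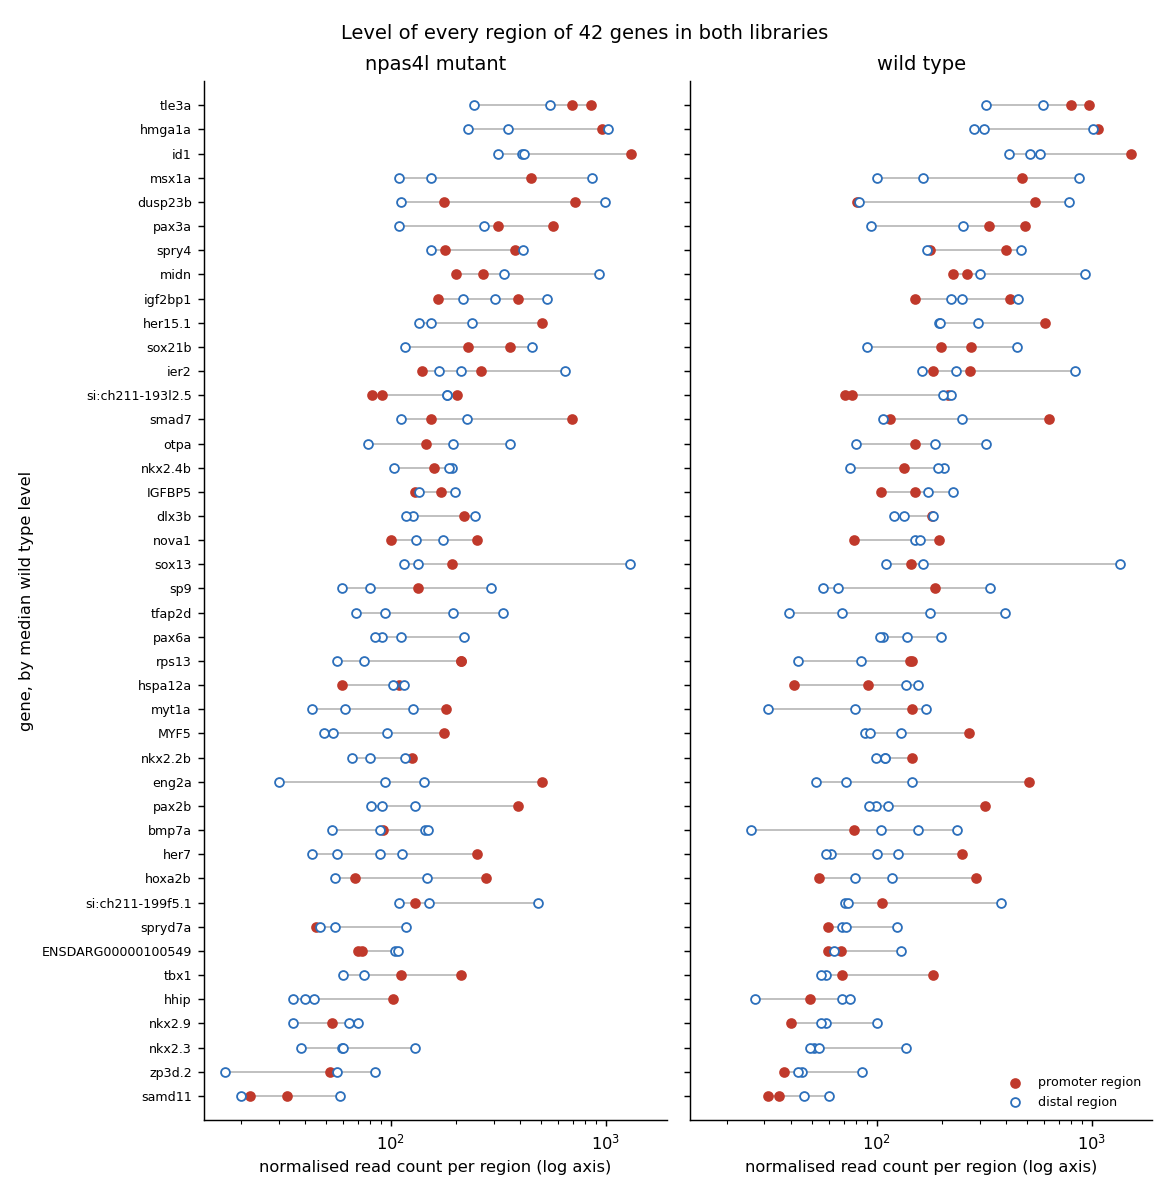
Each row is 1 of 42 of the genes, ordered by median wild type level, and each point is 1 region, with its normalised read count on a log x axis, in the npas4l mutant (left) and wild type (right) library. Filled points are promoter regions, open points distal regions, and the grey line spans a gene's regions. Rows keep much the same pattern in both panels, with sox13 showing the widest spread in the wild type panel.

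Regions of 1 gene resembled each other in level more than regions of different genes. The intraclass correlation of log2 wild type level, which is 1 where regions of a gene are alike and near 0 where gene makes no difference, was 0.45 (95% interval over genes 0.29 to 0.61) for 177 regions of 43 genes. It was 0.31 (0.27 to 0.35) for 2180 genes with 2 regions and 0.32 (0.25 to 0.40) for 280 genes with 3. The 278 pairs of regions of the same gene differed by a median of 1.85-fold in wild type level, against 2.29-fold for the 15298 pairs of different genes. Per kb of region width, the correlation among the 43 genes was 0.63. All these regions were read in the same library, and no test was made.

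The mutant over wild type log2 ratio was shared less than the level. Its intraclass correlation was 0.16 (0.025 to 0.32) over the 43 genes, with a standard deviation of 0.37 within genes and 0.16 between them. In regions with a mean of at least 50 normalised reads, it was 0.25 (0.095 to 0.42), against 0.38 (0.22 to 0.55) for the level. These intervals overlapped. Pairs of regions of the same gene had the same sign in 52.5% of cases, against 49.3% of pairs from different genes, and differed by a median of 0.28 against 0.37 on the log2 scale. Counting error alone, computed from the recovered reads, gave 28.5% of the variance within genes. The value varied with the number of regions: the correlation was 0.10 (0.06 to 0.14) among genes with 2 regions, −0.06 (−0.12 to 0.0082) among genes with 3 and −0.027 with genes of 3 regions added to the 43. It was −0.071 for the 5 genes with 5 regions, with a wide interval (−0.19 to 0.49) that includes the 0.16 of the 43 genes.

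Differences in log2 ratio between regions of 1 gene were of like size at all distances. The median difference was 0.28 for 37 pairs of the same gene under 1 kb apart, 0.31 for 48 pairs 1 to 2 kb apart, 0.28 for 141 pairs 2 to 5 kb apart and 0.29 for 52 pairs farther apart. Consecutive regions under 1 kb apart had the same sign in 58.3% of 36 pairs within these genes, against 54.8% of 458 pairs within genes of 2 or 3 regions and 55.4% of 341 pairs not assigned to 1 gene. Those 1 to 5 kb apart had the same sign in 48.4% of 95 pairs within these genes, against 55.2% of 2113 pairs within genes of 2 or 3 regions and 60.0% of 3329 pairs not assigned to 1 gene. The size of the log2 ratio went with depth: its median absolute value was 0.38 in 61 regions with a mean under 100 normalised reads, 0.22 in 80 regions from 100 to 300, and 0.19 in 36 regions of 300 and over. Over all assigned regions the same 3 values were 0.38, 0.23 and 0.17.

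Taken as a set of regions, the 43 genes were centred near 0. The median log2 ratio was −0.04 (order-statistic 95% interval −0.08 to 0.05), with 93 regions below 0, 83 above and 1 at 0, against 0.08 for all assigned regions and 0 for all regions. Regions at least 2-fold lower in the mutant library numbered 2 of 177 (1.13%), against a background of 4.06% of all nuclear regions and 1.75% of assigned ones. At least 2-fold higher were 5 (2.82%), against 3.65% of all and 3.05% of assigned regions. Beyond their counting intervals 41 regions (23.2%) were lower, against 18.1% of all and 12% of assigned regions, and 24 (13.6%) were higher, against 19.7% and 25%. The share lower was close to that of genes with 3 regions, 22.6%, and to that of unassigned regions, 23.8%. Shares lower rose up to 3 regions per gene: 9.99% with 1 region, 14.9% with 2, 22.6% with 3 and 23.2% with 4 or more. Within the last group the share was 24.3% of 152 regions with 4 per gene and 16% of 25 regions with 5. Of the 177 regions 118 were distal, and distal regions had lower log2 ratios than promoters also in genes with 1 region (0.03 against 0.12 at promoters, as medians) and in genes with 2 or 3 (−0.03 against 0.06).

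**Figure D3:**
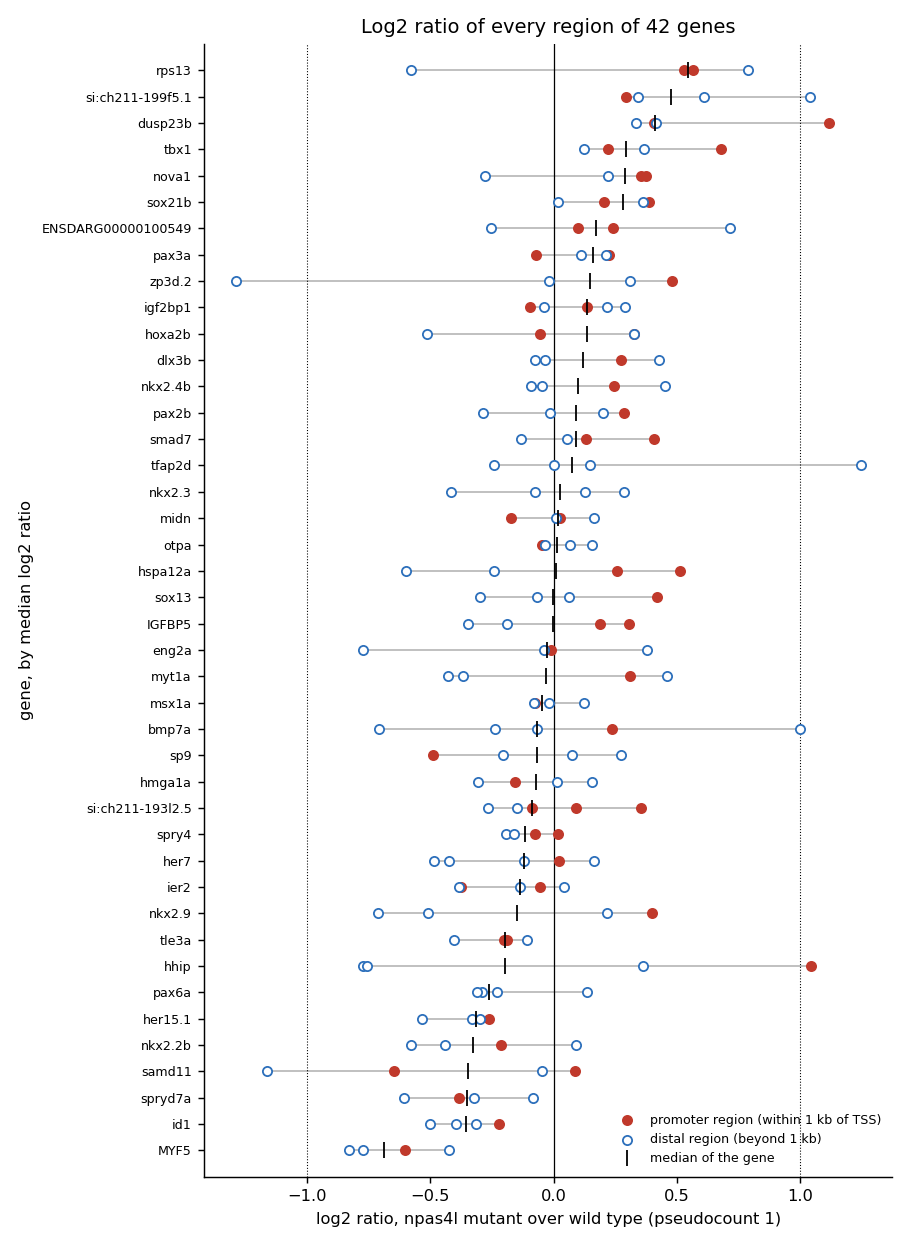
Each row is 1 of 42 of the genes, ordered by median log2 ratio, and each point is 1 region, with its log2 ratio of npas4l mutant over wild type on the x axis. Filled points are promoter regions, open points distal regions, ticks the median of a gene and dotted lines 2-fold differences. Most rows cross 0, and 9 genes have all their regions on 1 side.

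In 9 of 43 genes (20.9%, exact 95% interval 10.0% to 36.0%) all regions had the same sign. Throughout below 0 were the 5 genes MYF5, her15.1, id1, spryd7a and tle3a, and throughout above it the 4 genes dusp23b, si:ch211-199f5.1, sox21b and tbx1. With log2 ratios centred so that all promoters have a median of 0, a shift of 0.11, the first 5 were joined by 5 others, among them ier2, nkx2.2b, samd11 and spry4, and sox21b no longer had all its regions above 0. Of the 280 genes with 3 regions, 102 had all of them on 1 side. Fewer regions share a sign more easily, so this count cannot be compared directly with that of the 43 genes. Summed over regions, 11 of the 43 genes were lower in the mutant library beyond the counting interval, against a background of 11.3% of all genes with a region, and 9 were higher, against 26.8%. Genes with 3 regions were closer, with 80 of 280 lower and 48 higher. The 43 genes had a median wild type sum of 629 normalised reads, against 168 over all genes, and larger sums have narrower counting intervals. Whether this bears on the counts lower and higher was not tested.

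At MYF5, a myogenic factor gene that is active in paraxial mesoderm when somites begin to form, every region was lower in the mutant library. The promoter region (chromosome 4, 22020080 to 22020567) held 177 normalised reads in the mutant, against 269 in wild type, or a log2 ratio of −0.60 (−0.89 to −0.32). Past the end of the gene, the region 4149 bp from the TSS held 49 and 88 (−0.83, −1.39 to −0.33), and the one 4893 bp away held 54 and 93 (−0.77, −1.29 to −0.27). The upstream region, 4092 bp away, held 96 and 129 (−0.42, −0.82 to −0.03). All 4 intervals lay below 0, and they overlapped one another. This gene had the lowest median log2 ratio of the 43, −0.69.

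The region at which id1, a target gene of BMP signalling, was most open was its promoter (chromosome 11, 18542445 to 18543221), with 1309 normalised reads in the mutant, against 1526 in wild type. Its other 3 regions held 407, 414 and 314 in the mutant, against 576, 515 and 413 in wild type. Log2 ratios ran from −0.50 (−0.69 to −0.31) at the region 2400 bp upstream to −0.22 (−0.33 to −0.11) at the promoter, all beyond counting error. The promoter had the log2 ratio nearest 0, but its interval overlapped those of the other 3 regions. At her15.1 the promoter held 506 normalised reads in the mutant, against 607 in wild type (−0.26, −0.44 to −0.09), and its flanking regions had −0.33, −0.30 and −0.53, each with an interval below 0. The 4 regions of tle3a had −0.40, −0.19, −0.20 and −0.11, the last of them, inside the gene, with an interval that reached 0.06. Those of spryd7a, at 45 to 117 normalised reads in mutant and 59 to 124 in wild type chromatin, had −0.60 (−1.19 to −0.07) at 1892 bp upstream, and the intervals of the other 3 included 0.

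In the opposite direction, si:ch211-199f5.1, the gene paired with the protocadherin PCDH8, was higher in the mutant library at all 4 regions. The region 2207 bp inside the gene (chromosome 9, 54168750 to 54169203) held 151 normalised reads in the mutant, against 73 in wild type, or a log2 ratio of 1.04 (0.64 to 1.46). Its most open region, 3219 bp inside, held 481 and 379 (0.34, 0.15 to 0.54), and the one 1551 bp inside held 109 and 71 (0.61, 0.16 to 1.05). The promoter region held 130 and 106, with an interval that included 0. That promoter interval (−0.09 to 0.67) overlapped the interval of the MYF5 upstream region (−0.82 to −0.03). MYF5 and this gene, both on the paraxial mesoderm list, had no overlap in the log2 ratios themselves. The third gene of that list, her7, had a median between theirs and overlapped MYF5 in range, with −0.49 (−0.89 to −0.08) at 1807 bp upstream, 0.02 (−0.23 to 0.29) at its promoter, and −0.42, −0.12 and 0.16 at regions whose intervals included 0.

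At dusp23b, a dual-specificity phosphatase gene, the region at the TSS (chromosome 17, 6119026 to 6119360) held 177 normalised reads in the mutant, against 81 in wild type (1.12, 0.75 to 1.52). The larger region 961 bp upstream held 720 and 543 (0.41, 0.25 to 0.57), and the largest, 4836 bp upstream, held 990 and 786 (0.33, 0.20 to 0.47). Of these the region at the TSS stood apart, since its interval lay above those of both larger ones. At tbx1, a T-box gene of the pharyngeal region, the 4 regions had log2 ratios of 0.12 to 0.68, and the highest, 777 bp into the gene, held 111 in the mutant, against 69 in wild type (0.68, 0.25 to 1.145). The SoxB2 gene sox21b had 0.39 (0.15 to 0.62) at 727 bp, 0.36 (−0.04 to 0.78) at 2400 bp, 0.20 (−0.08 to 0.48) at its TSS and 0.016 (−0.18 to 0.21) at 4766 bp.

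**Figure D4:**
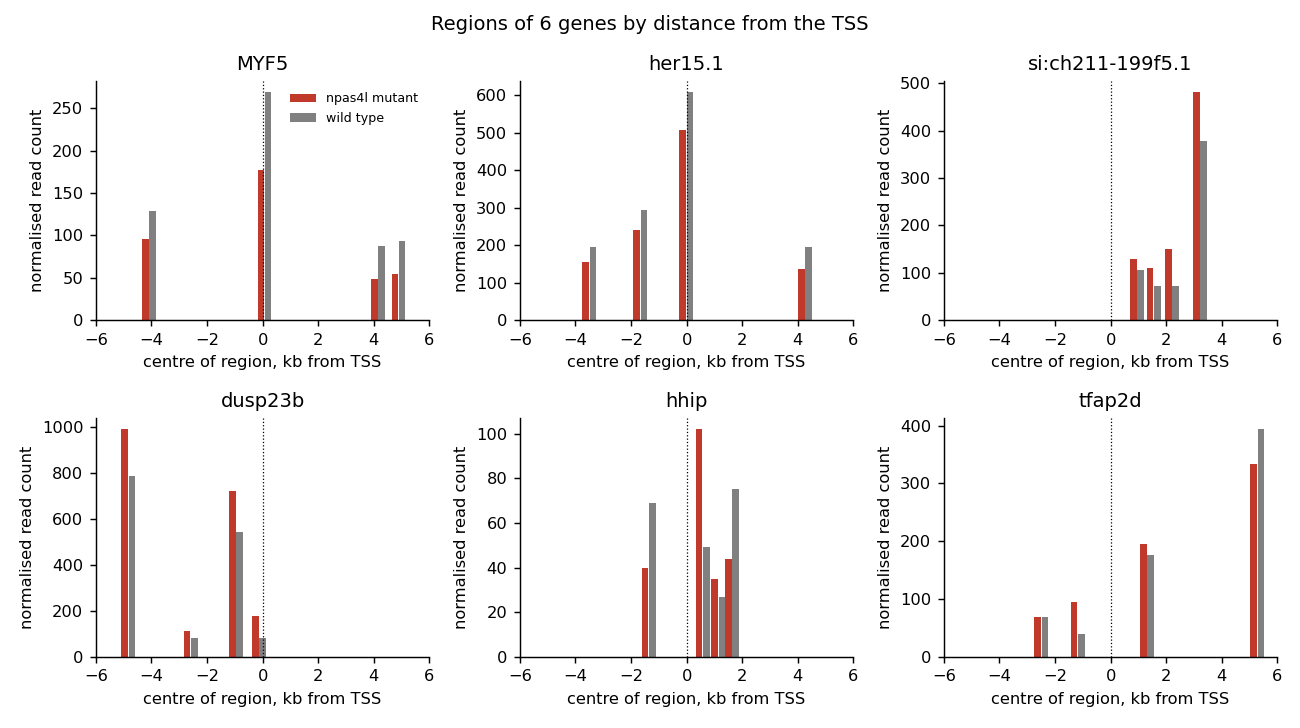
Bars give the normalised read count (y axis) of each region of 6 genes in the npas4l mutant (left bar of each pair) and wild type (right bar) library, placed by the distance of the region's centre from the TSS in kb (x axis, negative upstream, dotted line at the TSS). All regions of MYF5 and her15.1 are lower in the mutant, all regions of si:ch211-199f5.1 and dusp23b higher, and those of hhip and tfap2d differ in direction.

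Most of the 43 genes had regions on both sides of 0. The median gene spanned 0.62 on the log2 scale from its lowest to its highest region, between 0.20 at msx1a and 1.81 at hhip, and 9 genes spanned 1 or more. In 13 of 43 genes at least 1 pair of regions had counting intervals that did not overlap. Among these genes were dusp23b and si:ch211-199f5.1, whose regions were all above 0. A pair that did not overlap was sought among all regions of each gene. No share over other genes is given, so whether 13 is many cannot be said. Of all assigned regions, 12% were lower and 25% higher beyond their own counting intervals, a comparison with 0 and not between regions. Both a region lower and a region higher beyond the counting interval were found at 4 genes, hhip, bmp7a, rps13 and tfap2d. For this count, too, no share over other genes is given. Of the 177 regions, 23.2% were lower and 13.6% higher beyond their intervals. At hhip the promoter (chromosome 1, 35058400 to 35058876) held 102 normalised reads in the mutant, against 49 in wild type (1.04, 0.57 to 1.58). The region 1363 bp upstream held 40 and 69 (−0.77, −1.37 to −0.18) and the one 1629 bp inside the gene 44 and 75 (−0.76, −1.36 to −0.22). Summed over its 4 regions hhip held 221 in the mutant, against 220 in wild type, so that the sum showed nothing of the differences within it.

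A BMP ligand gene with 5 regions, bmp7a, summed to 527 in the mutant, against 601 in wild type (−0.19, −0.36 to −0.02). A region 3056 bp upstream (chromosome 11, 7140530 to 7140984) held 53 normalised reads in the mutant, against 26 in wild type, or a log2 ratio of 1 (0.32 to 1.74) that lay exactly on the 2-fold limit. The next region out, 4526 bp upstream, held 144 and 236 (−0.71, −1.03 to −0.41). At rps13, a ribosomal protein gene, both promoter regions were higher in the mutant library, with 212 and 211 normalised reads against 143 and 146 in the wild type library. Past its end, a region 3924 bp from the TSS held 75 and 43 (0.79, 0.23 to 1.36), and the one 3338 bp away held 56 and 84 (−0.58, −1.085 to −0.06).

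The highest and lowest log2 ratios of the 177 belonged to tfap2d and zp3d.2. The AP-2 family gene tfap2d had 94 normalised reads in the mutant, against 39 in wild type at 1188 bp upstream (chromosome 20, 48256746 to 48257034; 1.25, 0.70 to 1.82). Its most open region, 5285 bp inside the gene, held 333 and 394 (−0.24, −0.46 to −0.03). The lowest log2 ratio was at zp3d.2, an egg coat protein gene, where a region 2662 bp inside the gene (chromosome 16, 42103325 to 42103560) held 17 in the mutant, against 43 in wild type (−1.29, −2.26 to −0.49). The other 3 zp3d.2 regions had intervals that included 0. At samd11 a region 2851 bp upstream held 20 and 46 (−1.16, −2.03 to −0.39). These low values rest on few reads: 5 of the 7 regions past 2-fold had a mean under 100 normalised reads, and none had a mean of 300 or over.

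Some genes differed little at every region. The 4 regions of msx1a, a homeobox gene of the neural plate border, held 864, 448, 154 and 109 normalised reads in the mutant, against 875, 472, 163 and 100 in wild type, with log2 ratios from −0.08 to 0.12 whose intervals all included 0. At otpa, a homeobox gene of hypothalamic neurons, the range was −0.05 to 0.16, and at spry4 −0.19 to 0.02, the lowest with an interval that ended just below 0. The msx1a intervals reach from −0.41 to 0.52, which bounds the difference that counting error leaves possible at its smaller regions. At pax3a, a gene of neural crest and dorsal neural tube, the promoter region at the TSS held 568 in the mutant, against 486 in wild type (0.22, 0.05 to 0.40). Its second promoter region, 694 bp upstream, had −0.07, and its distal regions had 0.11 and 0.21, all with intervals that included 0. Over the homeobox genes as a class, 27 of 48 regions were below 0 and the median was −0.03. The bHLH genes had 15 of 17 regions below 0 with a median of −0.39, against −0.04 for all 177, but 12 of these 15 belong to MYF5, id1 and her15.1. Centred on all promoters the bHLH genes had 16 of 17 and the homeobox genes 29 of 48 below 0.

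Other regulators had regions on both sides of 0. At nkx2.9, a homeobox gene of the ventral neural tube, the promoter held 53 normalised reads in the mutant, against 40 in wild type (0.40, −0.22 to 1.022). Both upstream regions were lower there, with 35 in the mutant against 58 in wild type at 1070 bp (−0.71, −1.38 to −0.10) and 70 against 100 at 4229 bp (−0.51, −0.98 to −0.06). The neighbouring pair on chromosome 20 did not differ alike. At nkx2.2b the region 3094 bp inside the gene had −0.58 (−1.055 to −0.11) and the one past its end −0.44 (−0.89 to −0.02), while at nkx2.4b, where a region 2223 bp upstream had 0.45 (0.02 to 0.90), the intervals of the other 3 included 0. At myt1a, a zinc finger gene of neural progenitors, the region 4189 bp upstream held 126 in the mutant against 170 in wild type (−0.43, −0.78 to −0.09), and the promoter held 181 against 146 (0.31, −0.0075 to 0.64).

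Several genes had a single region that was higher beyond counting error, as were 25% of all assigned regions. At dlx3b, a gene of the preplacodal and ear field, it lay 1510 bp upstream, with 245 normalised reads in the mutant against 182 in wild type (0.43, 0.15 to 0.71). At pax2b and sox13 it was the promoter, with 388 against 318 (0.29, 0.07 to 0.50) and 193 against 144 (0.42, 0.11 to 0.74). At smad7 and nova1 it was the second promoter region, 667 and 602 bp into the gene, with 153 against 115 (0.41, 0.06 to 0.78) and 252 against 194 (0.38, 0.10 to 0.65). At hoxa2b, a homeobox gene of the hindbrain, at pax6a, an eye and neural tube gene, and at nkx2.3, a gene of pharyngeal endoderm, the intervals of all 4 regions included 0, with log2 ratios between −0.51 and 0.33. The same held for all 5 regions of si:ch211-193l2.5. IGFBP5, which encodes an IGF-binding protein, had 1 region lower beyond its interval, 3255 bp inside the gene, with 135 in the mutant against 172 in wild type (−0.35, −0.68 to −0.01), and ENSDARG00000100549 had 1 higher, 2133 bp upstream, with 104 against 63 (0.71, 0.27 to 1.20).

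Promoters mostly had higher log2 ratios than distal regions of the same gene. Of the 43 genes 40 had at least 1 region within 1 kb of the TSS, and nkx2.3, pax6a and tfap2d had none, the nearest pax6a region lying 1007 bp away. The 59 promoter regions had a median log2 ratio of 0.14 (order-statistic 95% interval 0.0016 to 0.26) and the 118 distal regions −0.08 (−0.21 to −0.017). These intervals count regions of 1 gene as separate and hold no spread between embryos. Of the promoter regions 38 lay above 0 and 21 below, and of the distal regions 45 lay above and 72 below. Beyond counting intervals, 12 promoter regions (20.3%) were higher and 8 (13.6%) lower, against 26.9% and 9.71% of all assigned promoter regions. Of the distal regions 12 (10.2%) were higher and 33 (28%) lower, against 19.4% and 18.6% of all assigned distal regions. Among the distal regions, those downstream of the gene end had a median of −0.15 (−0.44 to 0.12, 19 regions). Those upstream had −0.09 (−0.29 to 0.04, 56 regions) and those inside the gene −0.05 (−0.24 to 0.11, 43 regions). All of these intervals included 0 and overlapped one another.

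Within a gene, promoter regions averaged higher log2 ratios than distal ones in 29 of 40 genes (72.5%, 56.1% to 85.4%). The median difference of promoter minus distal was 0.18 (0.10 to 0.31), and 0.12 (−0.0113 to 0.30) for the region nearest the TSS minus the median of the others. The same difference was 0.07 (−0.013 to 0.13) in 262 genes with 3 regions and 0.08 (0.05 to 0.11) in 1642 genes with 2, so its sign was shared with genes of fewer regions. After the median log2 ratio of regions of like level and class (promoter, distal, unassigned) was subtracted, the 40 genes had 0.058 (0.0021 to 0.20). Gene by gene, the promoter and distal means had a Pearson correlation of 0.35 and a Spearman correlation of 0.33 over 40 genes read in the same 2 libraries, and 21 of 40 genes had both means on the same side of 0. Apart from hhip, the largest differences of promoter minus distal were at zp3d.2 (0.81), hspa12a (0.81) and nkx2.9 (0.73).

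At hspa12a, an HSP70 family gene, the 2 promoter regions held 59 and 109 normalised reads in the mutant, against 41 and 91 in wild type, with intervals that included 0. Inside the gene, the region 2729 bp from the TSS held 102 and 155 (−0.60, −0.98 to −0.23). The order was the other way at sp9, a zinc finger gene, with the smallest difference of promoter minus distal (−0.54). Its promoter held 133 in the mutant, against 187 in wild type (−0.49, −0.82 to −0.16), and its other 3 regions had intervals that included 0.

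**Figure D5:**
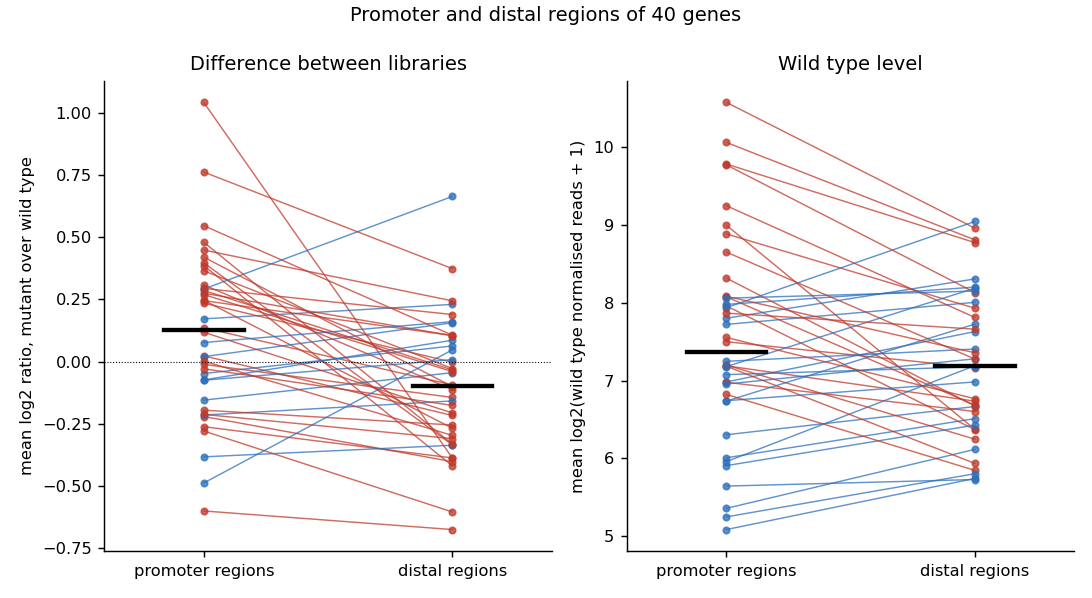
Lines join the mean over promoter regions (within 1 kb of the TSS) to the mean over distal regions for each of 40 genes, for the log2 ratio of npas4l mutant over wild type (left panel) and for log2 wild type level (right panel). Red lines are genes whose promoter mean is higher, blue lines genes whose promoter mean is lower, and black bars medians over genes. Promoter means are higher in 29 of 40 genes in the left panel and in 20 of 40 in the right panel.

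In level, promoters led in some genes and distal regions in others. The median of the difference varied with what counted as a promoter, within wide intervals that overlapped and included 0. Promoter regions held a median of 181 normalised reads in the mutant, against 177 in wild type, and distal regions 116.5 and 127. Within a gene, promoter minus distal log2 wild type level had a median of 0.06 (−0.28 to 0.95), with 20 genes on each side. It was 0.60 (−0.17 to 0.96) with promoters within 500 bp and −0.03 (−0.36 to 0.62) with promoters within 2 kb. Promoters were higher in 64.9% of genes with 3 regions and 67.1% of genes with 2, by a median of 0.37 and 0.69. In the mutant library the promoter was higher in 26 of the 40 genes, with a median of 0.28 (−0.03 to 1.07). In 16 of 43 genes the most open wild type region was a promoter region, and in 18 of 43 the most open mutant region was. In both libraries the level of a gene's promoter went with that of its distal regions, with a Pearson correlation of 0.69 over 40 genes in the wild type and 0.66 in the mutant, within 1 library each.

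Single genes show both forms. At eng2a, a homeobox gene of the midbrain-hindbrain boundary, the promoter (chromosome 7, 40712668 to 40713589) held 506 normalised reads in the mutant, against 510 in wild type, and its distal regions held 30 to 142 and 52 to 146. The promoter minus distal difference was 2.62 in log2 wild type level, the largest of the 40. At midn, which encodes midnolin, a region 3049 bp inside the gene (chromosome 22, 18721174 to 18721850) held 931 and 925, while the 2 promoter regions held 268 and 201 in the mutant, against 263 and 227 in wild type. The immediate early gene ier2 had its most open region 4058 bp past the TSS, beyond the end of the gene, with 641 in the mutant, against 836 in wild type (−0.38, −0.53 to −0.23). Of its 2 promoter regions, the one at the TSS held 261 and 271 (−0.05, −0.31 to 0.19) and the one 668 bp upstream held 140 and 182 (−0.38, −0.72 to −0.06). For igf2bp1, which encodes an RNA-binding protein, the most open region lay 4918 bp upstream, with 529 and 455 (0.22, 0.03 to 0.40), against 391 and 418 (−0.10, −0.30 to 0.11) at the region on the TSS.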

How the data were processed

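The deposited table, on GRCz10, has a column of whole-number scores for each library. Their values show them to be read counts that the authors normalised and rounded. The deposited log2 ratio sets the mutant first, per the file headers. Tools named in the submitters' processing notes, without roles, are DESeq, DESeq2 1.14.1, deepTools 2.5.4, MACS2, Picard 2.9.0, STAR 2.5.3a and Trimmomatic 0.36. Region calling, duplicate removal and any shift of read ends were not given in the sources used here. Per the file headers, the deposited fraction of a region in the gene body separated distal regions inside and outside the gene. A mutant factor of 1.06505, estimated from steps in the mutant values, and its reciprocal 0.939, assumed for the wild type, gave reads for counting intervals only.

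Promoter regions lie within 1 kb of the TSS and the rest are distal. Per gene, values were averaged over promoter and over distal regions. The intraclass correlation is one-way with gene as class, and medians carry order-statistic 95% intervals. Members, classes and lists were chosen with earlier results of these data known. Named genes were those with most regions, the extreme medians, ranges and promoter minus distal differences, and up to 3 per list or class; tle3a, the clone-named genes and genes given only as examples of a count were added after their values were seen. Simulated data served to test the procedure. Computation used matplotlib 3.10.9, scipy 1.17.1, numpy 2.4.6 and pandas 2.3.3 in Python 3.11.15. No sequences are given. Values of 1 member gene are not reported here and its row is not plotted, though it is counted in all summaries.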

Additional observations from a re-analysis of the deposited data

How the results depend on the processing

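Of 59 alternative values of 8 results, 43 stayed within the interval of the reported value or within 1.5 times the reported count. The intraclass correlation of the log2 ratio changed sign with genes of at least 3 regions (−0.027, −0.08 to 0.03) and of at least 5 (−0.071, −0.19 to 0.49), both with intervals that include 0. It was 0.25 for regions with a mean of at least 50, 0.19 on ranks and 0.06 for distal regions only. That of wild type level moved to 0.63 per kb of width and was 0.38 for regions with a mean of at least 50. The median difference of promoter minus distal log2 ratio moved to 0.090 with genes of at least 3 regions and to 0.058 once the trend with level and class was subtracted, and in level to −0.36 in genes of at least 5 regions; within the reported interval, the level difference was 0.35 (0.22 to 0.55) with at least 3 regions, 0.33 with a mean of at least 50 and 0.48 for the region nearest the TSS. At least 5 regions also gave 0% of genes with 1 sign. Regions at least 2-fold lower numbered 21 with genes of at least 3 regions, 0 with at least 5 and 0 with a mean of at least 50, and those 2-fold higher 20 and 1 in these gene sets, 3 with a pseudocount of 5, 3 with that trend subtracted and 2 when centred on all promoter regions. That centring, which shifts all log2 ratios by 0.11, moved the median to −0.14. Sets of fewer or more genes differ by construction, and the cause of the other moves was not tested. The last centring, ranks, distal regions only and the region nearest the TSS were chosen after seeing the data. No paired analysis was possible because there is 1 library per genotype. Depth limits single regions, the lowest counts being 16 reads in the mutant library (a zp3d.2 region) and an estimated 28 in the wild type library (a bmp7a region).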
